A study of Mus musculus with 384 samples.

Results

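Of the 95 samples with values that carry the region label Pit, dDG or vDG, 64 had a normalized *Anxa2* value under 1000, and these Anxa2-low samples are the subject here. The samples were chosen by their measured *Anxa2* values alone, so the *Anxa2* levels, and those of genes that separate with it, describe the choice, and the difference in level between Anxa2-low and Anxa2-high samples was not tested. The 64 samples are part of 380 samples with values, taken from 12 regions of 32 mice. By region label, the rule took 16 of the 32 Pit samples, 24 of the 32 dDG samples and 24 of the 31 vDG samples.

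All mice were male Balb/c mice, and the labels give postnatal day 9 as the age, whereas the paper describes adult mice. The labels name a status (MS or Co) and an injection state (inject or naive), without saying what was injected, and nothing in them pairs these names with the rearing and adult housing conditions of the study. Micropunches of frozen brain were measured by TruSeq Targeted RNA sequencing, in which gene-specific primers amplify a short stretch of each chosen transcript. Each of the label groups Co naive, Co inject, MS naive and MS inject gave 16 Anxa2-low samples, namely 4 labelled Pit, 6 labelled dDG and 6 labelled vDG. These samples came from 8 mice in 3 of the groups and from 7 mice in MS inject, so that 31 mice entered. Of these mice, 6 gave 1 sample, 17 gave 2 and 8 gave 3, and samples of a mouse were averaged on the log2 scale before status and injection were tested, except where a fit over single samples is named. The paper names the Nac where the labels name Pit, and what the samples labelled Pit are was not settled.

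The assay panel was built around the glucocorticoid receptor, a nuclear receptor through which, beside the mineralocorticoid receptor, corticosterone changes transcription in the hippocampus. In the dentate gyrus, the entry station of the hippocampus, this receptor is abundant in granule neurons. Ligand binding sends the receptor to the nucleus, where *Fkbp5*, *Cdkn1a* and many other genes are known targets. The FKBP5 protein in turn binds the Hsp90 chaperone complex and lowers the receptor's affinity for hormone, which closes a short feedback loop. Whether a mouse had been injected, or had been through the treatment behind the label MS, was compared across 65 assays that passed a minimum of 2000 reads over all samples.

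*Anxa2*, an annexin that binds membrane phospholipids in a calcium-dependent manner, lay between 70.2 and 298 in the Anxa2-low samples and between 1901 and 21258 in the remaining 31. The members nearest to the limit of 1000 therefore stood at 298, and the nearest samples outside at 1901. *Tmem176a*, a membrane protein, ranged from 131 to 396 (median 220.5) in the Anxa2-low samples and from 1305 to 5915 in the Anxa2-high samples, without overlap. *Pitpnm2*, a phosphatidylinositol transfer protein, moved the other way, with a median of 1714 (364 to 2496) against 240.5 (154 to 394). *Slc6a15*, a transporter of neutral amino acids, had a median of 522 (286 to 953) against 48.6 (16.6 to 800.2).

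**Figure D1:**
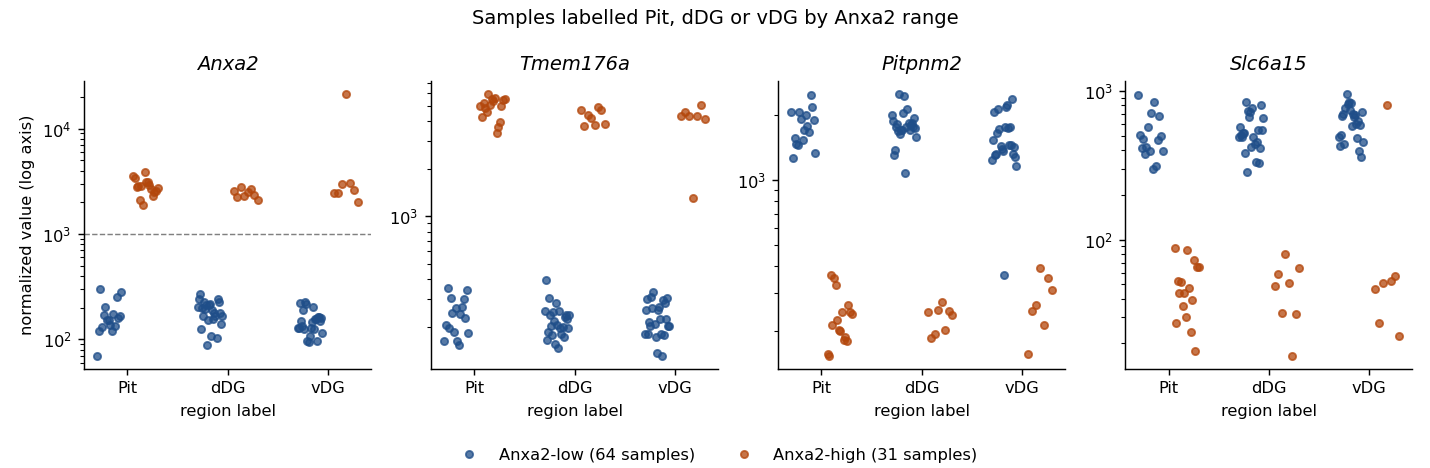
Normalized values (log axes) of *Anxa2*, *Tmem176a*, *Pitpnm2* and *Slc6a15* in each of the 95 samples labelled Pit, dDG or vDG, with the 64 Anxa2-low samples in blue and the 31 Anxa2-high samples in orange; the dashed line marks the limit of 1000. The ranges of *Anxa2* and *Tmem176a* do not overlap, whereas 1 Anxa2-low sample labelled vDG lies within the Anxa2-high range of *Pitpnm2*, and 1 Anxa2-high sample lies within the Anxa2-low ranges of both *Pitpnm2* and *Slc6a15*; through that sample, the Anxa2-high range of *Slc6a15* covers 56 of the 64 Anxa2-low samples.

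A single Anxa2-low sample, labelled vDG, Co naive, mouse 259, had a *Pitpnm2* value of 364, which lies within the Anxa2-high range, while its *Slc6a15* value of 826 was among the higher ones. Conversely, the Anxa2-high sample labelled vDG, MS inject, mouse 83 had the highest *Anxa2* value of 21258 together with a *Pitpnm2* value of 394 and a *Slc6a15* value of 800.2, both within the Anxa2-low ranges. *Pitpnm2* and *Slc6a15* were the only assays given as markers of dentate-like tissue, and a name for the tissue cannot rest on a pair of markers. The samples are therefore called Anxa2-low throughout. Of the 6 immune and myeloid markers in the table, *Tnf* had a median of 0 in the Anxa2-low samples, and the sum of all 6 ranged from 39.1 to 428 in them against 470.3 to 1124 in the Anxa2-high samples. The 3 vascular, meningeal or pituitary markers, *Anxa2* included, summed to 238 to 663 against 6089 to 22613.

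Depth was similar in the label groups, with a median of 149605 reads in Co inject, 147229 in Co naive, 141277 in MS inject and 149462 in MS naive. Single libraries held between 83896 and 261007 reads. A count of 0 allows a value of up to 1.36 to 4.89, depending on the library (3 reads), which covers counting error only. The library labelled Pit, MS naive, mouse 89 stood apart, with the fewest reads (83896) and the largest distance to the mean of all members (12.5, next 8.10), so that results on injection were also computed without it. The assays with the highest medians over the 64 samples were *Fth1*, the heavy chain of the iron store ferritin (34993, range 13992 to 55163), the ribosomal protein gene *Rps12* (15887, 10072 to 22198) and the chaperone gene *Hsp90aa1* (11229, 4739 to 20283). Those with the lowest were *Lcn2* (4.38, 0 to 238), *Zfp553* (8.22, 0 to 48.9) and *Mob3a* (9.57, 0 to 53.9).

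Injection was the label with differences past the threshold. Using limma on log2(value + 1) means per mouse, with Benjamini-Hochberg adjustment over 65 assays and a threshold of 0.1, 4 assays (6.15%) differed between inject and naive mice, and all 4 were higher in inject mice. A fold here is the ratio of value + 1, a scale that understates the change of low genes. The 4 genes were *Cdkn1a*, *Fkbp5*, *Nedd4l* and *Ube2g2*. Without a threshold on the adjusted p, 9 assays had an unadjusted p under 0.05. In bulk tissue, more RNA per cell cannot be told apart from a larger share of the cells that hold it.

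*Cdkn1a* encodes p21, an inhibitor of cyclin-dependent kinases that holds cells in G1, and is annotated as protein coding at chromosome 17, start 29090976, end 29100727, plus strand (GRCm38). *Fkbp5*, the co-chaperone gene introduced above, has its start at 28399094 and its end at 28517527 of the same chromosome, minus strand. *Ube2g2*, a ubiquitin-conjugating enzyme of endoplasmic reticulum-associated degradation, is at chromosome 10, start 77622275, end 77645993, plus strand. *Nedd4l* encodes a ubiquitin ligase best known for the turnover of epithelial sodium channels.

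The bases before RefSeq starts of *Fkbp5* and *Cdkn1a* are shown because both genes are known targets of the glucocorticoid receptor and *Cdkn1a* is also the classical target of p53; RefSeq windows (GRCm38.p6) were at hand for these 2 of the 4 genes. Each window holds the 250 bases before a start, 5′ to 3′ along the gene. The *Fkbp5* window and the downstream *Cdkn1a* window lie before starts inside the gene spans given above; other annotated *Fkbp5* transcripts start further upstream, up to 28517527, and the bases there are not shown. Capitals mark GGGCGG (or CCGCCC), the core of the Sp1 box, in the first and the third window, and the p53 10-base motif in the second.
Fkbp5, chr17:28486150-28486399, minus strand: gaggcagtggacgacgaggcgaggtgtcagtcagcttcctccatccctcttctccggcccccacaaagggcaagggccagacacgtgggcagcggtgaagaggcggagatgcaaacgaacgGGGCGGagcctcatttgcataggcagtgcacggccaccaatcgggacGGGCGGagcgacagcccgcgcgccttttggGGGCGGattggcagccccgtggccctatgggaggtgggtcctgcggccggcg
Cdkn1a, upstream start, chr17:29090729-29090978, plus strand: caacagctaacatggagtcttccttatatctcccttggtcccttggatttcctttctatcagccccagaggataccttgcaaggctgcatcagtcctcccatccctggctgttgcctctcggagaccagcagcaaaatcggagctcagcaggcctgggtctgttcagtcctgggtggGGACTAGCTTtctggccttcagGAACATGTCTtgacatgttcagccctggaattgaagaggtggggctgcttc
Cdkn1a, downstream start, chr17:29093519-29093768, plus strand: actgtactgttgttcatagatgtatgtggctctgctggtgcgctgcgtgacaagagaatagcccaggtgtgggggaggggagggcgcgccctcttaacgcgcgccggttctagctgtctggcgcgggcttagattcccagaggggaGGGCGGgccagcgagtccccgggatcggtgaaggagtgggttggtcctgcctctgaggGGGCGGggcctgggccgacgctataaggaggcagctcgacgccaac

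The *Fkbp5* window holds the Sp1 core 3 times and the downstream *Cdkn1a* window 2 times; 32.7% of all 32851 windows of this length hold it at least once on either strand. The p53 motif occurs 2 times in the upstream *Cdkn1a* window, and 7.13% of all windows hold it. The letters AGAACA (or TGTTCT on the other strand), one arm of the palindrome that the glucocorticoid receptor binds, are in none of these windows and in 16.1% of all windows. A match describes the letters only, and the absence of a match concerns these 250 bases alone.

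*Cdkn1a* was low in all groups and rested on a median of 27.5 reads per sample (0 to 105). Over single samples, its value spanned 0 to 41.8 (median 11.2) in Co naive, 4.99 to 87.7 (median 29.5) in Co inject, 0 to 58.4 (median 13.8) in MS naive and 0 to 55.0 (median 38.0) in MS inject. In mouse means, 14 of 15 inject mice lay above the median of the naive mice, and 7 lay above the highest naive mouse. The log2 difference was 1.42 (SE 0.30; limma, Benjamini-Hochberg adjusted p = 0.00405), or 2.67-fold with a 95% confidence interval of 1.74 to 4.11. The difference was 1.73 (SE 0.42) within Co mice and 1.11 (SE 0.44) within MS mice, and these did not differ past the threshold (interaction −0.62, SE 0.61).

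*Fkbp5* ranged from 53.2 to 267 (median 138) in Co naive samples and reached 71.2 to 404 (median 186) in Co inject samples, 38.2 to 422 (median 103) in MS naive and 111 to 245 (median 173) in MS inject. The naive samples reached lower values, whereas the highest single value of all was that of an MS naive sample labelled Pit. All 15 inject mice lay above the median of the naive mice, at mouse means from 135 to 271, and 11 of 16 naive mice lay below the lowest inject mouse. The log2 difference was 0.73 (SE 0.17; limma, Benjamini-Hochberg adjusted p = 0.00445), or 1.66-fold (1.31 to 2.10). It was nearly the same within Co mice (0.73, SE 0.23) and within MS mice (0.73, SE 0.24).

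*Nedd4l* and *Ube2g2* differed less. *Nedd4l* had a median of 2202 (1067 to 2551) in Co naive, 2562 (2113 to 2915) in Co inject, 2287 (1327 to 3065) in MS naive and 2675 (1661 to 3722) in MS inject. All 15 inject mice lay above the naive median, and the log2 difference was 0.22 (SE 0.067; limma, Benjamini-Hochberg adjusted p = 0.0548), or 1.17-fold. *Ube2g2* had a median of 498 (287 to 671), 644 (327 to 838), 550 (346 to 1054) and 699 (316 to 856) in the same order of groups. Of the inject mice, 14 of 15 lay above the naive median, with a log2 difference of 0.26 (SE 0.088; limma, Benjamini-Hochberg adjusted p = 0.0927), or 1.06-fold to 1.36-fold by its 95% confidence interval. Inject and naive samples overlapped for all 4 genes.

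**Figure D2:**
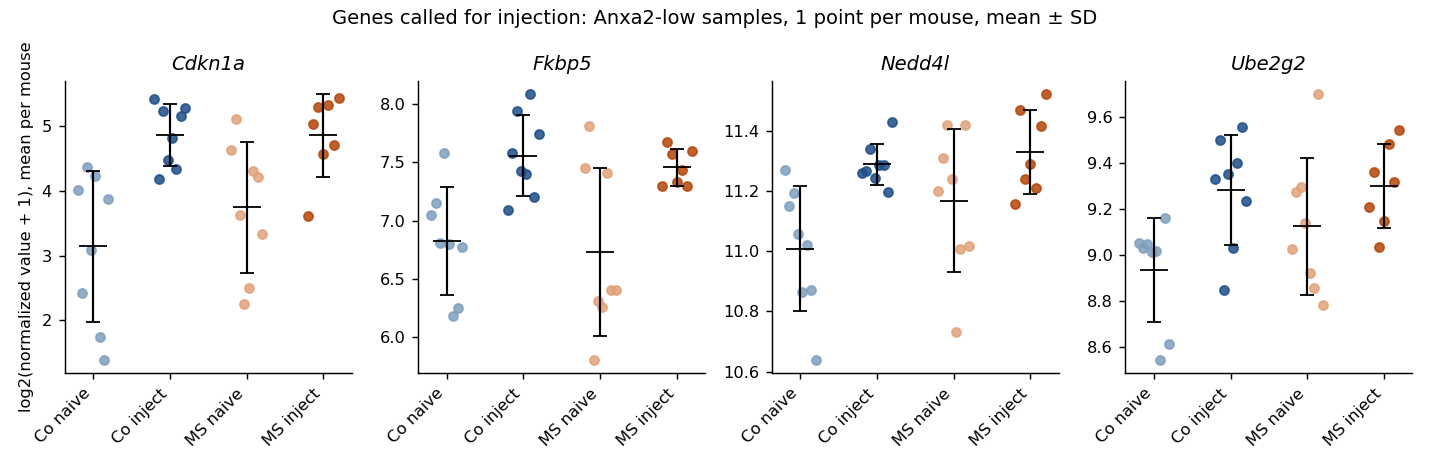
Mean log2(normalized value + 1) of the Anxa2-low samples of each mouse for *Cdkn1a*, *Fkbp5*, *Nedd4l* and *Ube2g2*, by label group (8, 8, 8 and 7 mice), with the mean and SD of each group in black. Inject mice are shifted upward in both Co and MS, the naive groups spread further down, and the groups overlap. Above the highest naive mouse lie 7 inject mice for *Cdkn1a*, 2 for *Fkbp5*, 3 for *Nedd4l* and 0 for *Ube2g2*.

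The calls depended on the fit and, for *Nedd4l* and *Ube2g2*, on single mice. With each of the 31 mice left out in turn, *Cdkn1a* and *Fkbp5* passed in all 31 fits, *Nedd4l* in 28 and *Ube2g2* in 14. The vDG library of Co naive mouse 259, the one with a *Pitpnm2* value in the Anxa2-high range, also held the lowest values of all 64 samples for *Nedd4l* (1067) and *Ube2g2* (287). Without this library, left out after the values had been seen, 2 assays passed, *Cdkn1a* and *Fkbp5*, while *Nedd4l* and *Ube2g2* did not (limma, Benjamini-Hochberg adjusted p = 0.103 and 0.128). With single samples, region label as a term and the mouse as replicate block, *Cdkn1a* and *Fkbp5* kept an adjusted p of 0.00714 each, while *Nedd4l* (0.146) and *Ube2g2* (0.270) did not pass. With 5 principal components of all samples as terms, none of the 65 assays passed in limma (9 with an unadjusted p under 0.05), and the differences were 1.12 for *Cdkn1a* and 0.32 for *Fkbp5* (limma, Benjamini-Hochberg adjusted p = 0.276 and 0.303).

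The 5 assays with the smallest unadjusted p included *Thbs1*, the gene of the matrix protein thrombospondin 1, which did not pass (log2 difference −0.97, SE 0.34; limma, Benjamini-Hochberg adjusted p = 0.109). Its sample medians were 20.3 in naive and 13.4 in inject samples. *Lcn2*, which encodes the secreted iron-siderophore binding protein lipocalin 2, had the largest difference in size, 2.02 (SE 0.74; limma, Benjamini-Hochberg adjusted p = 0.114), and was at 0 in 17 of 32 naive samples and in 6 of 32 inject samples. With a mouse left out, the adjusted p in limma ran from 0.0442 to 0.222 for *Thbs1* and from 0.0461 to 0.230 for *Lcn2*, and *Thbs1* passed under 4 and *Lcn2* under 3 of 18 other settings. The highest *Lcn2* values, however, were 238 in a naive sample and 165 in an inject sample. Since both genes are also in the lists of markers of other cells, the summed levels of these lists are given. The immune and myeloid markers summed to a median of 135 (39.1 to 428) in naive and 161 (75.2 to 297) in inject samples, and the vascular, meningeal or pituitary markers to 433 (255 to 568) and 399 (238 to 663). The first sum includes *Lcn2* itself. The second includes *Thbs1* (median 16.8) beside *Anxa2* (159), the gene of the rule, and *Tmem176a* (220.5), which separates with it. The sums are therefore no separate measure of such cells, whose part in the injection differences was not tested.

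**Figure D3:**
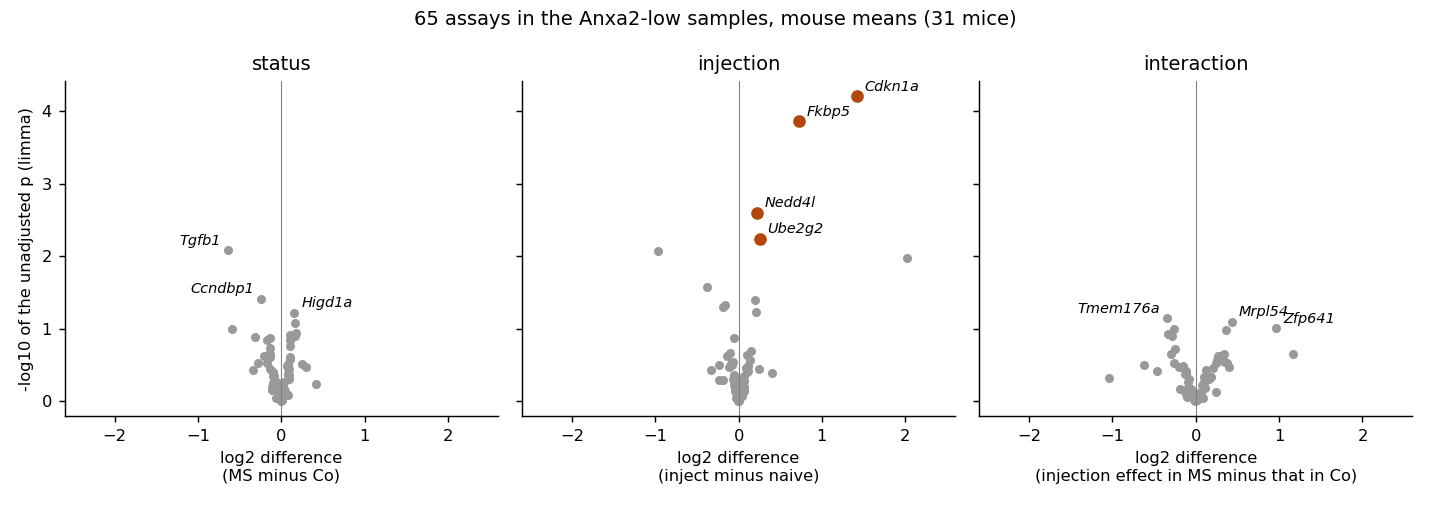
Log2 difference (x axis) and −log10 of the unadjusted limma p (y axis) for 65 assays and the terms status (MS minus Co), injection (inject minus naive) and interaction (injection effect in MS minus that in Co), from means of 31 mice. The 4 assays past an adjusted p of 0.1 are drawn in orange, and all stand in the injection panel to the right of 0.

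The receptor itself and its main chaperone did not pass. *Nr3c1*, the gene of the glucocorticoid receptor, had a median of 409 (265 to 716) in naive and 388 (242 to 565) in inject samples, with a log2 difference of −0.10 (95% confidence interval −0.27 to 0.06). *Hsp90aa1* differed by 0.11 (−0.14 to 0.36). Of the 4 members of the list of glucocorticoid receptor and chaperones (*Nr3c1*, *Fkbp5*, *Hsp90aa1* and the chaperonin subunit gene *Cct7*), 1 rose, 0 fell, and the median difference was 0.04, beside −0.01 over all 65 assays. In the list of ubiquitin and proteasome genes, 2 of 7 rose, namely *Nedd4l* and *Ube2g2*, beside 4 of 65 (6.15%) over all assays, with a median of −0.02 over the list, as the other 5 lay between −0.05 and 0.02. Neither of the 2 passed over single samples with the mouse as replicate block (limma, Benjamini-Hochberg adjusted p = 0.146 and 0.270). The list of cell cycle and cohesin genes held 1 that rose of 3, *Cdkn1a* (median 0.02).

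No member of the remaining lists passed for injection. Their medians were −0.002 for cytosolic translation, 0.02 for mitochondria, 0.03 for RNA polymerase and splicing, 0.03 for lipids and lysosome, −0.19 for transporters, −0.01 for kinase and beta-catenin signalling, 0.11 for the 4 immune and myeloid markers tested and −0.04 for the 3 vascular, meningeal or pituitary markers. *Rps12* differed by −0.05, *Rps25*, another gene of the small ribosomal subunit, by −0.08 and *Hist1h2al*, whose histone sequence has near-identical copies that may share reads, by 0.12 on the log2 scale, none past the threshold. *Pitpnm2* (0.07) and *Slc6a15* (−0.14) differed little by injection as well.

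Status gave no call. In limma, 0 of 65 assays (0%) passed the adjusted p of 0.1 for MS against Co, and 2 had an unadjusted p under 0.05. These were *Tgfb1*, the gene of transforming growth factor beta 1, and *Ccndbp1*, the gene of a cyclin D1 binding protein. *Tgfb1* ranged from 9.64 to 45.5 (median 26.2) in the 32 Co samples and from 0 to 43.7 (21.1) in the 32 MS samples, so that the groups overlapped over most of their range. Its log2 difference was −0.64 (SE 0.23; limma, Benjamini-Hochberg adjusted p = 0.535). *Ccndbp1* had a median of 320.1 (139 to 490.4) in Co and 275 (118 to 478) in MS samples, with a log2 difference of −0.24 (SE 0.11). The next in order were *Higd1a*, a hypoxia-inducible gene of the inner mitochondrial membrane (0.15), *Pitpnm2* (0.16) and the zinc finger gene *Zfp553* (−0.59), each with an adjusted p of 0.67 in limma.

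The lists moved little by status, with no member called in any of them. The medians were −0.10 for glucocorticoid receptor and chaperones, 0.10 for ubiquitin and proteasome and −0.17 for transporters, beside −0.01 over all assays. The 4 genes that rose with injection did not pass for status, with log2 differences of 0.30 (SE 0.30) for *Cdkn1a*, −0.10 (SE 0.17) for *Fkbp5*, 0.10 for *Nedd4l* and 0.10 for *Ube2g2*.

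The interaction of status and injection gave no call either, with 0 of 65 assays (0%) past the threshold in limma and 0 with an unadjusted p under 0.05. The smallest unadjusted p-values belonged to *Tmem176a* (−0.34, SE 0.18), the mitochondrial ribosomal gene *Mrpl54* (0.43, SE 0.24), *Zfp641* (0.96, SE 0.56), *Gart*, an enzyme gene of purine synthesis (−0.26, SE 0.15), and *Fscn1*, the gene of an actin-bundling protein (0.36, SE 0.21). All of these had an adjusted p of 0.884 in limma. With a mouse left out in turn, the interaction of *Zfp641* ran from 0.53 to 1.08. Its mean in MS naive mouse 89 was 4.06, and the next mouse of that group stood at 35.3. The intervals were wide for low genes. For *Cdkn1a* the 95% confidence interval of the interaction ran from −1.86 to 0.63 on the log2 scale.

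The region labels were then taken apart, since 16 of the Anxa2-low samples were labelled Pit. In the 24 samples labelled vDG, 4 assays (6.15%) passed for injection, and they were the same 4 genes. The log2 differences were 1.73 (SE 0.40) for *Cdkn1a*, 1.03 (SE 0.21) for *Fkbp5*, 0.44 (SE 0.13) for *Nedd4l* and 0.46 (SE 0.11) for *Ube2g2*. Without the library of mouse 259, the lowest for *Nedd4l* and *Ube2g2*, the same 4 genes passed, with log2 differences of 0.36 for *Nedd4l* and 0.40 for *Ube2g2*. In these samples *Fkbp5* ranged from 54.8 to 267 (median 109) in naive and from 126 to 404 (211) in inject mice. In the 24 samples labelled dDG, 0 assays passed in limma (0%; 3 with an unadjusted p under 0.05), with differences of 1.49 for *Cdkn1a*, 0.62 for *Fkbp5*, 0.15 for *Nedd4l* and 0.33 for *Ube2g2*. The samples labelled dDG and vDG together again gave the 4 calls.

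In the 16 samples labelled Pit, 0 assays passed in limma (0%; 0 with an unadjusted p under 0.05), and the differences were 0.67 for *Cdkn1a* and 0.11 for *Fkbp5*. *Fkbp5* read 172, 149, 158 and 53.2 in the Co naive samples, 355, 71.2, 97.0 and 214 in Co inject, 422, 108, 70.0 and 181 in MS naive and 141, 169, 125 and 152 in MS inject. No group stood apart among these 16 values. *Ube2g2* had a median of 541 (316 to 722) in the inject samples with this label and 624 (442 to 1054) in the naive samples (log2 difference −0.32, SE 0.24, not past the threshold).

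Whether the injection difference itself depended on the region label was tested in 1 fit over all 64 samples with the mouse as replicate block; this test was added after the values had been seen. Between Pit and the mean of dDG and vDG, 1 of 65 assays (1.54%) passed, namely *Ube2g2*, whose difference was smaller with the label Pit by 0.71 on the log2 scale (difference of differences −0.71, SE 0.21; limma, Benjamini-Hochberg adjusted p = 0.0912). The highest naive Pit value of *Ube2g2* (1054) was that of the library of mouse 89, which stood apart. Without it the difference of differences was −0.59 (SE 0.21; limma, Benjamini-Hochberg adjusted p = 0.411), and 0 assays passed in limma (2 with an unadjusted p under 0.05). For *Fkbp5* the difference of differences was −0.70 (95% confidence interval −1.45 to 0.05), for *Nedd4l* −0.32 (−0.68 to 0.03) and for *Cdkn1a* −0.92 (−2.46 to 0.63). Between dDG and vDG, 0 of 65 assays (0%) passed in limma, and 0 had an unadjusted p under 0.05.

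**Figure D4:**
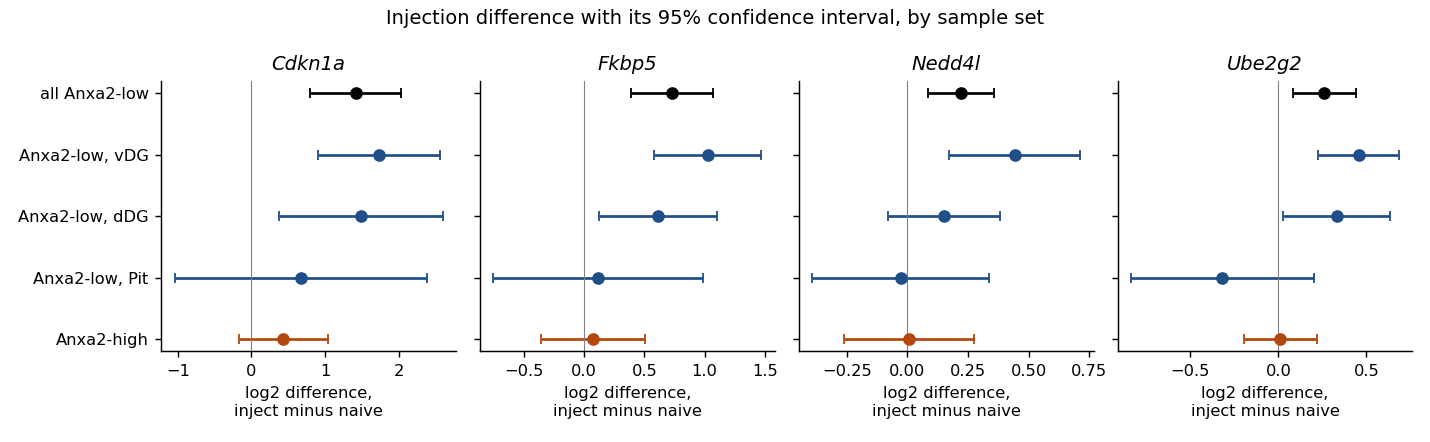
Log2 difference between inject and naive mice with its 95% confidence interval for *Cdkn1a*, *Fkbp5*, *Nedd4l* and *Ube2g2*, in all Anxa2-low samples (black), in those with each region label (blue) and in the Anxa2-high samples (orange). The intervals lie above 0 in the samples labelled vDG and include 0 in those labelled Pit and in the Anxa2-high samples.

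A status by injection interaction appeared only when the samples labelled vDG were fitted alone, where 4 assays (6.15%) passed: *Slc6a15* (0.91, SE 0.23; limma, Benjamini-Hochberg adjusted p = 0.0484), *Psmb3*, a core subunit gene of the proteasome (1.01, SE 0.31; 0.0904), *Fth1* (0.90, SE 0.28; 0.0904) and *Zfp641* (1.69, SE 0.55; 0.0904). Except for *Zfp641*, these lay outside the rule for named genes on this term and were chosen after their values were seen. *Slc6a15* spanned 744 to 953 (median 824) in Co naive, 429.5 to 705 (median 499) in Co inject, 358 to 721 (median 522) in MS naive and 482 to 697 (median 635) in MS inject. All 6 Co naive samples thus lay above every other sample, and the MS groups overlapped. Without the library of mouse 259, a Co naive sample left out after the values had been seen, these 4 assays passed again, with 0.91 for *Slc6a15*, 0.95 for *Psmb3*, 0.87 for *Fth1* and 1.74 for *Zfp641*. *Psmb3* had medians of 1988, 1460, 1352 and 1937 in the same order. *Fth1*, *Psmb3* and *Slc6a15* load in the same direction on the first principal component of the members, on which the vDG samples had medians of 1.37, 0.44, −0.99 and 1.41 in that order, with scores from −4.21 to 2.65 in MS naive; the part of this component in the interaction was not tested.
In the samples labelled dDG the interaction of *Slc6a15* was −0.05 and in those labelled Pit −0.39. The difference of the interaction between vDG and the mean of the other labels did not pass in any of 65 assays (0%; 7 with an unadjusted p under 0.05), and it was 1.12 (SE 0.42) for *Slc6a15* and 1.42 (SE 0.45) for *Psmb3* (limma, Benjamini-Hochberg adjusted p = 0.258 and 0.163).

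**Figure D5:**
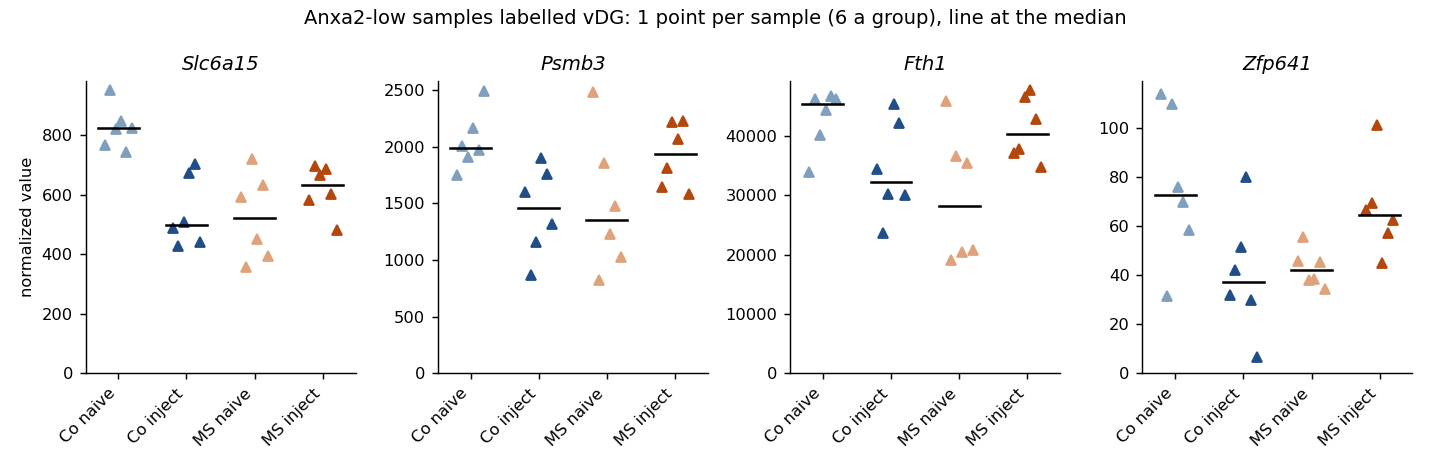
Normalized values of *Slc6a15*, *Psmb3*, *Fth1* and *Zfp641* in the 24 Anxa2-low samples labelled vDG, with 1 point per sample, 6 samples a label group and a line at the median. Co naive has the highest median for all 4 genes, and the injection difference points down in Co and up in MS.

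The Anxa2-high samples served as the comparison. Both ranges were present in 22 mice (5 Co naive, 6 Co inject, 6 MS naive and 5 MS inject), and the difference between a mouse's Anxa2-low and Anxa2-high means was tested by the same terms. For injection, 0 of 65 assays (0%) passed in limma, and 8 had an unadjusted p under 0.05. The smallest was that of *Fkbp5*. Fitted in each range apart, its injection difference was 0.73 in the Anxa2-low and 0.07 (SE 0.21) in the Anxa2-high samples. Each of these fits used all mice with a sample in the range. MS inject mouse 83 (3 Anxa2-high samples, 0 Anxa2-low) entered only the latter. In the 22 mice, the difference between the ranges was 0.85 (95% confidence interval 0.25 to 1.46, limma, Benjamini-Hochberg adjusted p = 0.275). Over single samples of both ranges with the mouse as replicate block, this difference was 0.51 (−0.08 to 1.09) for *Fkbp5* and 0.79 (−0.29 to 1.88) for *Cdkn1a*, and 0 assays passed in limma (1 with an unadjusted p under 0.05, *Mknk2*, a kinase gene named after its value was seen). In the fits of each range apart, the other called genes stood at 1.42 and 0.44 for *Cdkn1a*, 0.22 and 0.01 for *Nedd4l* and 0.26 and 0.01 for *Ube2g2*. Their differences between the ranges in the 22 mice had adjusted p-values in limma between 0.275 and 0.338. An injection difference particular to the Anxa2-low samples was thus not shown. *Fkbp5* itself was higher in the Anxa2-high samples (median 375, 95.0 to 850.5) than in the Anxa2-low ones (157, 38.2 to 422), and in the 285 samples with other region labels its median was 55.2. For status and for the interaction, 0 of 65 assays (0%) differed between the ranges in limma, with 4 unadjusted p-values under 0.05 each.

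Finally, the 3 region labels were compared within the Anxa2-low samples, with the mouse as replicate block and label group as a term. Between dDG and vDG, 5 of 65 assays (7.69%) passed in limma. *Abcf1*, an ATP-binding protein that takes part in translation initiation, was lower in dDG, at a median of 107 (46.6 to 188) against 153 (95.7 to 321) in vDG (log2 difference −0.61, SE 0.14; limma, Benjamini-Hochberg adjusted p = 0.00556). *Fam117b* was lower as well (−0.43, SE 0.14), with medians of 458 and 650.2. The sialyltransferase gene *St6galnac4* (0.35) and *Higd1a* (0.23) were higher in dDG. The ranges of *Abcf1* and *Fam117b* overlapped between the labels.

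Samples labelled Pit differed from those labelled dDG in 1 assay (1.54%), *Abcf1* (0.68, SE 0.16; limma, Benjamini-Hochberg adjusted p = 0.0057), with a median of 139.9 in Pit. From samples labelled vDG they differed in 5 (7.69%), of which the kinase gene *Akt1* (0.34), *Nr3c1* (0.34) and *Rps12* (0.25) were higher in Pit, and *Fam117b* (−0.50) and *Hsp90aa1* (−0.45) were lower. *Nr3c1* had a median of 448 (277 to 619) in Pit, 405 (242 to 716) in dDG and 362 (252 to 535) in vDG. *Hsp90aa1* followed the opposite order, with 9175, 10365 and 13399 as medians. Of the list of glucocorticoid receptor and chaperones, 1 of 4 thus rose and 1 fell between Pit and vDG (median −0.19, beside 0.01 over all assays), and of the list of cytosolic translation 1 of 4 rose (0.15).

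The first principal component of the 64 samples over 51 assays with a mean of at least 100 held 46.0% of the variance, led by *Snrnp70*, a splicing factor gene, *Fam117b*, *Hsp90aa1* and *Fth1*. Its scores ranged from −4.20 to 3.56 in Co naive, −2.80 to 3.50 in Co inject, −4.24 to 2.65 in MS naive and −4.53 to 2.36 in MS inject, and so overlapped. By region label, 18 of 24 vDG samples scored above 0 (median 1.04), against 8 of 24 dDG samples (−0.53) and 6 of 16 Pit samples (−0.79), with overlapping ranges; *Fam117b* and *Hsp90aa1* are also among the genes called between region labels. The second held 7.99%, and *Fkbp5* had the second largest loading on it. Its medians were −0.33 in both naive groups against 0.32 in Co inject and 0.30 in MS inject, and the groups overlapped (Co naive −1.84 to 0.56, Co inject −1.11 to 0.78, MS naive −1.44 to 4.0, MS inject −0.85 to 1.12). The score of 4.0 was that of the Pit library of mouse 89. As *Fkbp5*, *Ube2g2* and *Nedd4l* enter this component, it is no independent measure. With the first component as a term, a fit added after the values had been seen, 8 assays passed for injection, including all 4 named above. *Fkbp5* (loading 0.21), *Nedd4l* and *Ube2g2* enter the first component too, so this fit is no independent support for the calls.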

How the data were processed

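Targeted RNA sequencing of 69 assays was analysed in 64 samples of 31 mice. The authors removed short and low-quality reads, aligned the rest with BWA to the assay manifest and divided the reads per assay by 1 DESeq2 size factor per sample, so the deposited values are a normalized signal; the submitters' processing notes name mm10. All values (100%) were whole multiples of a step per sample (tolerance 0.001 steps), and depth in reads was taken from that step. Amplified reads are not independent molecules, so limits from 3 reads cover counting error only. The 4 assays under 2000 reads over all samples (*Fan1*, *Lrrc25*, *Nuak2* and *Tnf*) were left out of tests, and 4 samples of the series had no values.

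Groups came from the sample titles. Values were transformed to log2(value + 1), averaged per mouse and fitted with limma 3.58.1 in R 4.3.3 for status, injection and their interaction, with Benjamini-Hochberg adjustment over 65 assays and a threshold of 0.1. Region labels were compared over single samples with the mouse as replicate block (statmod 1.5.0). The fits were run on simulated data with independent noise per gene and, for mouse means, equal spread per mouse. The real samples differ, as their first component holds 46.0% of the variance and mice gave 1 to 3 samples. The simulation does not cover these features. The mouse number in the titles was taken to mark 1 animal. In 41 pairs of samples of a mouse, deviations correlated at a median of −0.02 (−0.70 to 0.69, consensus correlation 0.00108). In 439 pairs from other mice of the label group, the median was −0.06 (−0.86 to 0.87). Samples of a mouse were thus hardly more alike than those of other mice. The p-values of status and injection measure the spread between means of 1 to 3 samples per mouse. These means mix region labels and were not weighted by the number of samples. Fits over single samples measure the spread between samples, with the mouse as replicate block. No pair of samples held identical values.

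The members and lists were chosen with earlier results of these data known. Named genes were *Anxa2*, *Tmem176a*, *Pitpnm2*, *Slc6a15*, *Nr3c1*, *Hsp90aa1*, *Cdkn1a*, *Hist1h2al*, *Rps12* and *Rps25*, all genes past the threshold for a label term, the 5 smallest unadjusted p-values per term, the 3 largest called differences per region contrast, and the 3 highest and 3 lowest medians; 1 assay called between dDG and vDG, and 1 called for the interaction in vDG without mouse 259, are not reported here. Alternatives were other pseudocounts, filters, scaling, thresholds, a variance trend, single samples, region labels, principal components and leaving out each mouse. Positions are from GENCODE M21 (GRCm38) and promoter windows from RefSeq (GRCm38.p6). Python 3.11.15, pandas 2.3.3 and matplotlib 3.10.9 were used.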

Additional observations from a re-analysis of the deposited data

Results flagged for a closer look

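For 29 named genes, the highest and lowest mouse mean of each label group was compared with its nearest neighbour relative to the range of the group. In 9 of 116 groups a mouse lay far from the others. Chance gives about 1 in 20 groups if all means are equally precise, whereas these rest on 1 to 3 samples. Those at the low end were *Ccndbp1* in Co naive mouse 239 (205), *Fam117b* in MS inject mouse 99 (313), *Mob3a* in Co inject mouse 235 (0), *Tgfb1* in MS naive mouse 105 (3.56), and *Zfp641* in Co naive mouse 239 (37.0) and in MS naive mouse 89 (4.06). Those at the high end were *Hist1h2al* in Co naive mouse 253 (87.2), *Rps25* in MS inject mouse 81 (5960.4) and *Tmem176a* in Co inject mouse 235 (396). The means of mice 105, 235 and 253 rest on 1 sample each, and that of mouse 89 includes the Pit library that stood apart.

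In the samples labelled vDG, the injection difference in MS exceeded that in Co by 0.90 for *Fth1*, 1.01 for *Psmb3*, 0.91 for *Slc6a15* and 1.69 for *Zfp641* on the log2 scale, each past the adjusted p of 0.1 in limma. The injection difference of *Ube2g2* differed between samples labelled Pit and those labelled dDG or vDG by −0.71, and by −0.59, without a call, when the Pit library of mouse 89 was left out.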

How the results depend on the processing

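The 4 calls for injection became 2 at an adjusted p of 0.05, 2 over single samples with the mouse as replicate block and 2 with no replicate block, *Cdkn1a* and *Fkbp5* in each case. They became 0 in samples labelled dDG alone, 0 in samples labelled Pit alone and 0 with 5 principal components. With the first principal component of the members, a term chosen after seeing the data and built from tested assays, they became 8. The cause was not tested. Leaving out each of the 31 mice gave 2 to 6 calls, with 2 without MS inject mouse 81, MS inject mouse 99 or MS naive mouse 91, and 6 without Co inject mouse 245, Co inject mouse 267 or Co naive mouse 241; *Cdkn1a* and *Fkbp5* were called each time. Without the library labelled Pit of mouse 89, also left out after seeing the data, 5 assays passed, with *Thbs1* added, and without the vDG library of mouse 259, likewise left out, 2 passed, *Cdkn1a* and *Fkbp5*. For status, 5 principal components gave 1 call (*Zap70*, lower in MS), and leaving out mice gave 0 to 0. For the interaction, the samples labelled vDG alone gave 4 calls, and leaving out mice gave 0 to 0. The 5 calls between dDG and vDG became 3 with rescaled totals, 1 of them higher in dDG in place of 3 of 5, and 2 at an adjusted p of 0.05. The replicate block changed no call between region labels, and none between the Anxa2 ranges. There, single samples of all mice with the block gave 0.51 for *Fkbp5* and injection, where means of the 22 mice with both ranges gave 0.85.

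Of 433 values of named genes under alternatives, 13 changed sign. For injection these were *Tmem176a* without Pit (0.049) and in dDG alone (0.045), *Pitpnm2* in dDG alone (−0.079), in Pit alone (−0.12), with 5 principal components (−0.065) and without the vDG library of mouse 259 (−0.0084), *Hsp90aa1* in Pit alone (−0.017) and with 5 principal components (−0.013), *Rps25* with 5 principal components (0.0050), and *Nedd4l* (−0.027), *Ube2g2* (−0.32) and *Slc6a15* (0.15) in Pit alone. For the interaction it was *Mrpl54* in Pit alone (−0.27). None changed sign in 744 values with a mouse left out. A lower and a higher limit for *Anxa2* both gave 64 members. Tests on recovered reads with edgeR or DESeq2 were planned and not run.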
